A study of Rattus norvegicus with 6 samples.

Results

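The tricarboxylic acid (TCA) cycle enzymes, and the malate, pyruvate and glutamate enzymes that feed it or draw from it, were followed in rat nucleus pulposus cells given lactate. The group was a list of 34 gene symbols, chosen by their known function but with earlier results of these data known. Of them, 33 were found among the 17273 genes of the larger deposited table. The exception, Ogdh, the first component of the 2-oxoglutarate dehydrogenase complex, was counted as absent and not analysed here. Nucleus pulposus cells are the cells of the soft core of the intervertebral disc. They came from male wild-type Sprague Dawley rats and were grown in DMEM with 10% fetal bovine serum. The control group was 3 libraries from untreated cells, and the lactate group was 3 libraries from cells kept in 10 mM lactate for 8 h. The labels give neither the age of the rats nor the form of lactate that was added. They also do not tie the 3 libraries of either group to separate cultures or rats, so every p-value measures only how these libraries scatter, and that scatter may be technical.

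In the TCA cycle, acetyl-CoA joins oxaloacetate to form citrate, and a ring of dehydrogenases then passes its electrons to NADH and to the respiratory chain while oxaloacetate is regenerated. Carbon also enters the ring as oxaloacetate made from pyruvate or as 2-oxoglutarate made from glutamate, and it leaves as citrate or malate for the cytosol. The nucleus pulposus has no blood vessels and is known as a glycolytic, lactate-rich tissue. Lactate taken up by a cell can be oxidised to pyruvate, which stands at the entrance to this ring.

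Libraries held 30291357 to 38989574 counts, and 3 counts, the floor chosen here, came to 0.0580 to 0.141 CPM. CPM values here were brought to a common scale by TMM factors, which align the bulk of genes between libraries. The correlation of log2(CPM + 0.5) across the tested genes was 0.976 to 0.987 within groups and 0.878 to 0.899 between them. The nucleus pulposus and notochord markers with counts, 9 of 10, summed to 2556 to 2872 CPM in control and 2486 to 2826 CPM in lactate libraries, most of it Acan (means 2390 and 2289, not called). With library totals in place of TMM factors Acan was called lower (log2 −0.92, edgeR adjusted p = 6.9e-05). Of the others, Cd24 was 5.00-fold and Sox9 2.72-fold higher and Pax1 1.83-fold lower, all called with TMM factors, though Sox9 was not with library totals. Tbxt, the notochord factor brachyury, had 4, 4 and 4 counts in control and 0 in every lactate library, and Krt19 had 3, 4 and 2 and 0. Col2a1, the collagen of the nucleus matrix, was low in both, with 23, 2 and 14 counts in control and 5, 22 and 28 in lactate libraries. Annulus and fibroblast markers with counts, 4 of 6, went from 29464 to 35309 up to 100819 to 145366 CPM, almost all of it Col1a1. This list did not move as a whole: Col1a1 (3.91-fold) and Thy1 (2.36-fold) were called higher, Mkx 5.14-fold lower, and Scx was not called (0.098). Macrophage markers (3 of 6 with counts) reached at most 0.954 CPM in control and 2.52 CPM in lactate libraries. Endothelial markers (3 of 5) reached at most 0.488 and 0.680 CPM. Muscle markers (3 of 4) went from 10.7 to 13.4 CPM in control to 14.2 to 22.9 CPM in lactate libraries. Almost all of it was Acta1 (means 11.3 and 18.4 CPM, called higher with TMM factors). With library totals Acta1 was at −0.16 and not called. Myh4 went the other way, with 24, 6 and 18 counts in control and 0 in every lactate library. Ckm had 3 counts in lactate library 1 and 0 in every other library. The part of these markers in the results below was not tested. In bulk libraries, fewer cells of a type and less RNA per cell cannot be told apart.

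All 33 genes with counts passed the filter on low counts. With edgeR's quasi-likelihood test 25 of them were called at an adjusted p under 0.05, 18 higher and 7 lower after lactate, and 8 were not called. Over all 13747 genes tested the called share was 66.0%, with 31.4% higher and 34.6% lower. The groups did not overlap in 28 of the 33, against 72.2% of all genes. The genes called lower were D2hgdh, Idh1, Sdhaf2, Idh2, Idh3a, Pck2 and Me2, and the largest rises were those of Sdhd, Idh3b, Mdh1, Sdhaf4 and Mdh2. The median log2 fold change of the 33 was 0.43, against −0.10 over all genes.

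**Figure D1:**
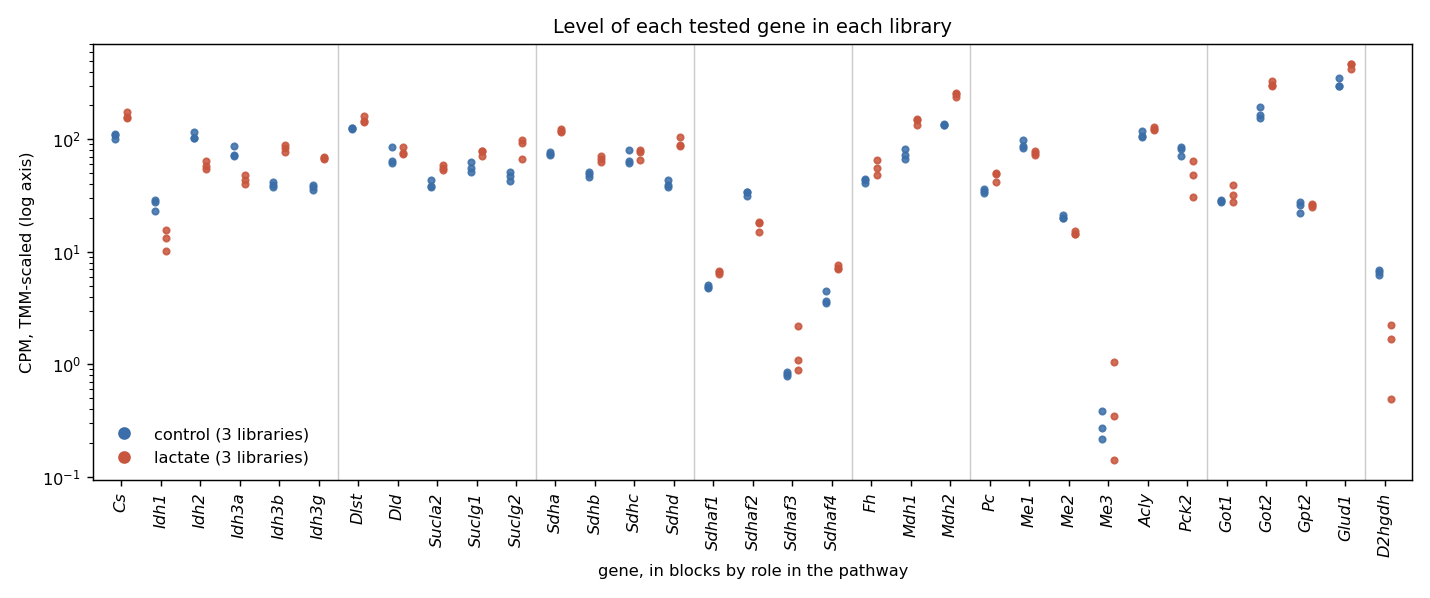
Level of each of the 33 genes in each library, as TMM-scaled CPM on a log axis; blue points are the 3 control and red points the 3 lactate libraries, and grey lines separate blocks by role. Levels run from Glud1, at 299.7 CPM or more, down to Me3, at 1.04 CPM or less, and all red points lie below the blue ones for Idh1, Idh2, Idh3a, Sdhaf2, Pck2, Me1, Me2 and D2hgdh.

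The sign of a change depended for many of these genes on what it was measured against. Together the 33 genes took 0.273 to 0.309% of all counts in control and 0.201 to 0.221% in lactate libraries, a lower share. On the TMM scale their sum was higher instead, going from 2060 to 2270 CPM up to 2744 to 2923 CPM. With library totals alone, 1 of the 33 (Sdhd) was called higher and 21 lower, where 12.5% and 61.8% of all genes were, and the median was −0.42 against −0.96. The shift of the median of all genes between both scalings was −0.855. Changes below are relative to the bulk of genes, that is with TMM factors, and the value with library totals is given where it changes the sign or ends a call.

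**Figure D2:**
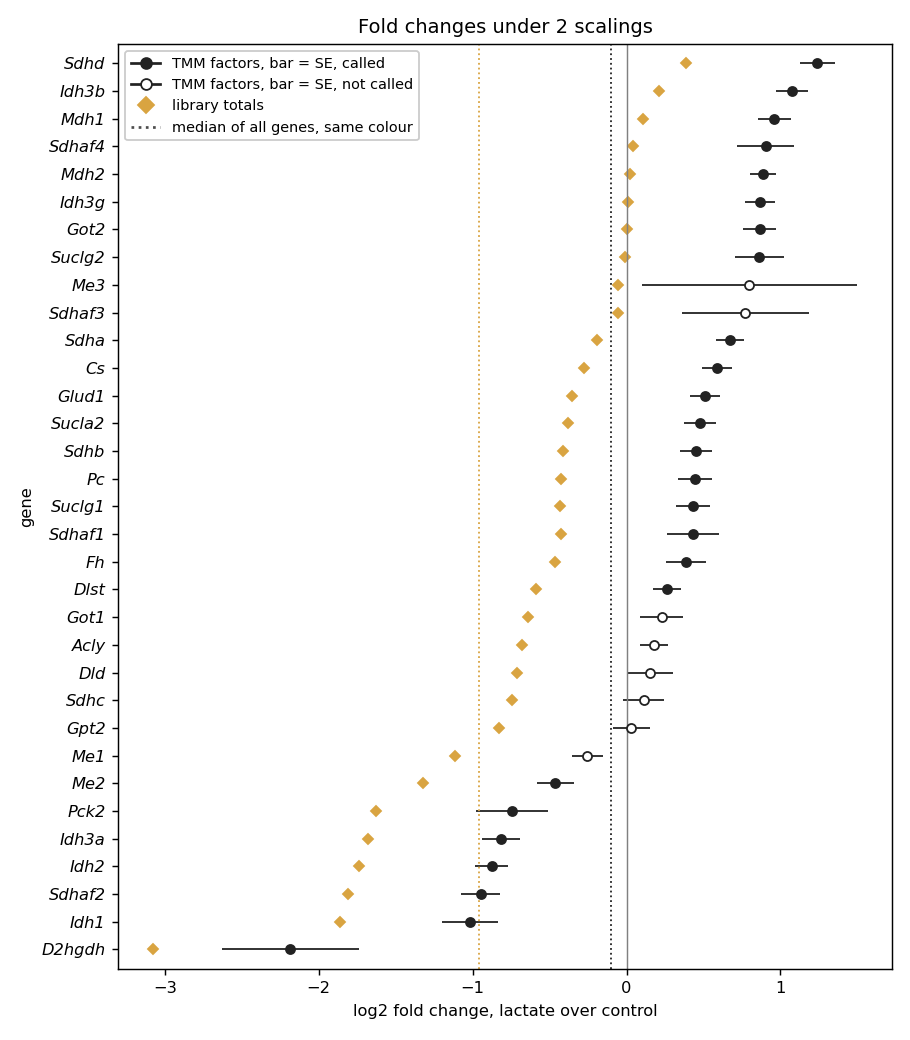
Log2 fold change of lactate over control for the 33 genes, ordered by value; circles are TMM-scaled with SE bars (filled where called, adjusted p under 0.05), diamonds are library totals, and dotted lines are the median of all genes under each scaling. The diamonds lie to the left of the circles by a near-constant step, so that 18 of the 33 genes change sign, while D2hgdh, Idh1, Sdhaf2, Idh2, Idh3a, Pck2, Me2 and Me1 lie below 0 and Sdhd, Idh3b, Mdh1, Sdhaf4, Mdh2, Idh3g and Got2 above it under both.

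These genes were abundant. Of the 33, 19 lay in the highest quintile of tested genes by mean level, a quintile in which 60.8% of genes were called higher and 20.1% lower, with a median of 0.62. With the trend of fold change on level removed, 6 of the 33 were higher and 13 lower, where 24.6% and 39.0% of all genes were, at a median of −0.13 against −0.25 for all genes. With the trend on transcript length removed, 15 were higher and 9 lower, where 28.7% and 35.5% of all genes were. With both trends removed, an alternative chosen after seeing the data, 2 were higher and 17 lower, where 20.6% and 40.2% of all genes were.

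Citrate synthase, which makes citrate, and the isocitrate dehydrogenases, which make 2-oxoglutarate, did not move in 1 direction. The cytosolic Idh1 and the mitochondrial Idh2, which make NADPH, fell together with Idh3a, the catalytic subunit of the NAD-linked enzyme, while Idh3b and Idh3g, its other subunits, rose. Idh1 was at 28.6, 27.5 and 22.9 CPM in control libraries 1, 2 and 3 and at 10.1, 13.3 and 15.7 CPM in lactate libraries 1, 2 and 3. All lactate values lay under all control values, 2.02-fold lower on average (log2 −1.02 ± 0.18, the error being the SE; edgeR adjusted p = 0.0011). Idh2 went from 102, 104 and 117 to 58.0, 63.9 and 54.0 CPM (−0.88 ± 0.11, edgeR adjusted p = 0.00014). Idh3a went from 86.6, 71.8 and 71.1 to 47.7, 43.1 and 39.9 CPM (−0.81 ± 0.12, edgeR adjusted p = 0.00043), with no overlap in either gene. These falls, of Idh1, Idh2 and Idh3a, were called under each of the 16 alternative settings tried for single genes. Removal of both trends at once is not among these 16.

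Idh3b moved the other way, from 42.0, 39.0 and 37.5 to 89.6, 82.9 and 77.4 CPM, 2.11-fold higher (log2 1.07 ± 0.11; edgeR adjusted p = 3.6e-05). Idh3g went from 35.4, 37.9 and 39.1 to 67.3, 68.3 and 70.1 CPM (log2 0.87 ± 0.097; edgeR adjusted p = 7.2e-05). Every lactate value of both subunits exceeded every control value. With library totals they stood at 0.21 and 0.012 and were not called, so their rise is relative to the bulk of genes. Cs, citrate synthase, the enzyme that opens the cycle, was at 109.6, 101 and 112 CPM in control and 173, 159 and 154 CPM in lactate libraries (0.59 ± 0.096, edgeR adjusted p = 0.00066). Its sign turned to −0.27 with library totals (edgeR adjusted p = 0.036) and to −0.23 with the level trend removed (not called).

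The balance inside the NAD-linked enzyme does not depend on any scaling, because it can be read within each library. Per transcript length (FPKM), Idh3a stood at 46.7, 37.7 and 38.1 in control libraries and Idh3b at 37.0, 33.5 and 32.9, so the ratio of Idh3a to Idh3b was 1.26, 1.13 and 1.16. In lactate libraries Idh3a stood at 13.5, 11.9 and 12.6 FPKM and Idh3b at 41.4, 37.3 and 40.1, and the ratio was 0.326, 0.318 and 0.315. The order of the 2 subunits was thus reversed in all 3 lactate libraries. On log2 counts the ratio moved by −1.89 ± 0.051 (SE), or 3.69-fold, with no overlap (exact two-sided permutation p = 0.1, the smallest that 3 against 3 libraries allow). Idh3a against Idh3g moved by −1.68 ± 0.16, 3.21-fold, again with no overlap. The ratio of Idh1 to Idh2, the enzymes of cytosol and mitochondrion, moved by −0.16 ± 0.27 and its groups overlapped (exact permutation p = 0.7). The subunits also stayed on opposite sides of 0 when either trend over genes was removed by itself. Idh3a was at −0.79, Idh3b at 0.86 and Idh3g at 0.62 without the length trend, and at −1.35, 0.54 and 0.38 without the level trend, each called. With both trends removed, 1 of the 6 genes from Cs to Idh3g was called higher and 4 lower. Over all genes the shares were 20.6% and 40.2%. Idh3b and Idh3g were thus not both called higher in that setting.

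Within the summed FPKM of the 5 isocitrate dehydrogenase genes, Idh2 took 39.8 ± 2.74% (SD, n = 3) before and 21.3 ± 1.38% after lactate. Idh3b went from 16.1 ± 0.877% to 33.4 ± 1.65% and Idh3g from 17.2 ± 1.00% to 30.8 ± 1.58%. Idh3a went from 19.1 ± 1.99% to 10.7 ± 0.710%, and Idh1 from 7.80 ± 0.937% to 3.79 ± 0.918%. Idh2 was the leading transcript of the family in each control library, and Idh3b or Idh3g in each lactate library. The summed FPKM itself, which the authors scaled to their own totals, was 213 ± 7.10 in control and 119 ± 5.36 in lactate libraries.

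**Figure D3:**
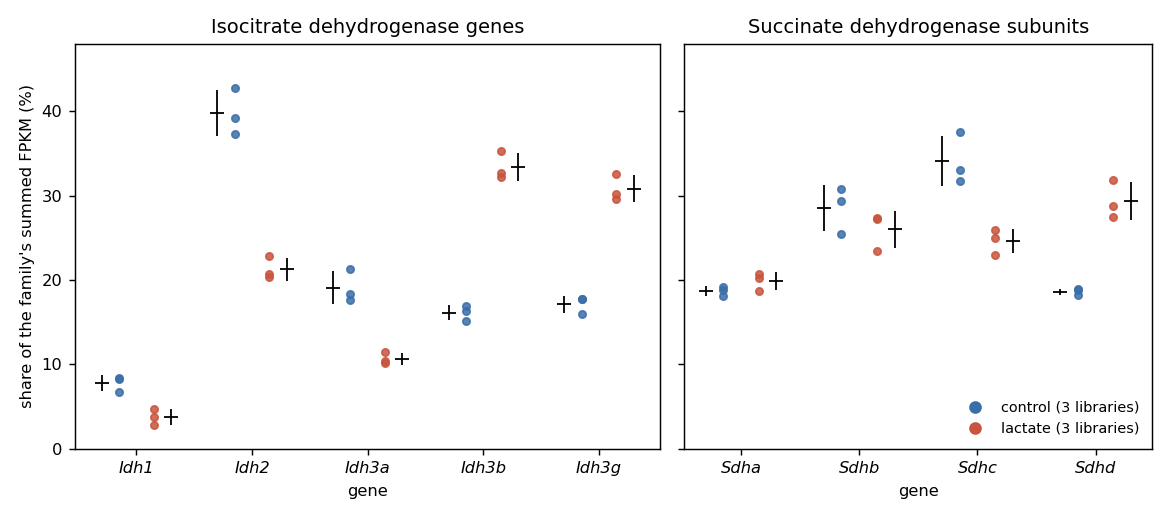
Share of each gene in the summed FPKM of the isocitrate dehydrogenase genes (left) and of the 4 succinate dehydrogenase subunits (right), in percent; points are libraries, blue control and red lactate, and black bars are mean ± SD over 3 libraries. Idh2 led in control libraries and Idh3b and Idh3g in lactate libraries, and Sdhd went from about the level of Sdha to the leading share in every lactate library.

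Upstream sequences of Idh3b and Idh3g are shown because subunits of 1 enzyme moved apart. Those of Idh2, a separate enzyme whose gene fell, and of Sdhd, from a later step, are shown beside them. These sequences are the 250 bases before the gene start, taken from RefSeq on the rat assembly GRCr8. There 32 of the 34 genes had an entry and Idh3a and Pc had none. The subunit that fell, Idh3a, can therefore not be compared with Idh3b and Idh3g. CCGGAAG, a core site of ETS factors such as GABP, was searched on both strands and is in capitals where it occurs (as CTTCCGG on the opposite strand). Idh3b lies at chr3:137939991-137940240 (− strand), Idh3g at chrX:156675483-156675732 (− strand), Sdhd at chr8:59850642-59850891 (− strand) and Idh2 at chr1:143467249-143467498 (− strand).
Idh3b: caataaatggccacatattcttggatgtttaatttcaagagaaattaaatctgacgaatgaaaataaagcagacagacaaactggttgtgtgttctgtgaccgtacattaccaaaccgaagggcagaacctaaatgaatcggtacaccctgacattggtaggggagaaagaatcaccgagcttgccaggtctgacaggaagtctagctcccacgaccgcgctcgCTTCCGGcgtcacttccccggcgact
Idh3g: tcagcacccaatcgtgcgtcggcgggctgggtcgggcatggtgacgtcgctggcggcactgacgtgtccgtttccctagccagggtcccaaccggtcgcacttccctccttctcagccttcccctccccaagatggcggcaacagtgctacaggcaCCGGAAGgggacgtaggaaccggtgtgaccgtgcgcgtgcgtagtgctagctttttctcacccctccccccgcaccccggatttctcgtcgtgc
Sdhd: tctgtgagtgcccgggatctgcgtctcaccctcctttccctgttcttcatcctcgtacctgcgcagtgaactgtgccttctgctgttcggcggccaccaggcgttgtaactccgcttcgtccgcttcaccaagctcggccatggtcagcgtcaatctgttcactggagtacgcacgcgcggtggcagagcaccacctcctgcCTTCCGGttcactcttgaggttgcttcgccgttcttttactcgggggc
Idh2: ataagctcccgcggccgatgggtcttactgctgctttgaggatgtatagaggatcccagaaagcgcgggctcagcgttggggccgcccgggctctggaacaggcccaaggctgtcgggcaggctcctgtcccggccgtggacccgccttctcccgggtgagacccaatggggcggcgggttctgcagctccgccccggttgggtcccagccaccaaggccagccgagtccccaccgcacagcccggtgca
The match began 26 bases before the start in Idh3b, 94 in Idh3g and 48 in Sdhd, the 3 genes shown that rose, and the window of Idh2 holds none. The windows shown are a selection. Those of Cs, called higher, and Idh1, called lower, are not printed and hold none either. CCGGAAG was found in 10 of the 32 windows (31.2%), against 15.1% of the windows of tested genes and 7.27% of all 33469 windows. Of those 10 genes, 8 were called higher (Idh3b, Idh3g, Dlst, Sdhb, Sdhd, Sdhaf1, Mdh2 and Glud1), 1 lower (Sdhaf2) and 1 not called (Sdhaf3), where 17 of the 31 tested genes with a window were higher and 6 lower. The NRF1 site, searched the same way, was found in Sucla2, Sdha and Sdhaf3 (9.38%, against 8.79% for tested genes). The antioxidant response element core TGACNNNGC was found in 7 windows (21.9%, against 12.4%), those of Idh1, Idh3g, Sucla2, Sdhaf2, Mdh2, Me1 and Got1. A match is a stretch of letters and no measurement of binding.

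Of the genes for the steps from 2-oxoglutarate to succinate, 4 of the 5 tested were called higher and 1 was not called. Of all genes 31.4% were called higher, and of the highest quintile by level 60.8%. The signs of all 5 turned under library totals. Dlst, the succinyl-transferring core of the 2-oxoglutarate dehydrogenase complex, had 124, 125 and 126 CPM in control and 145, 144 and 162 CPM in lactate libraries (0.26 ± 0.091, edgeR adjusted p = 0.031). Its groups did not overlap, but the call was lost without any single control library or without lactate library 1 (edgeR adjusted p = 0.056 to 0.089), and it stood at −0.59 with library totals. Dld, the dihydrolipoamide dehydrogenase that this complex shares with pyruvate dehydrogenase, overlapped between groups at 85.9, 63.6 and 61.5 and 76.0, 85.2 and 74.0 CPM (0.16 ± 0.15, edgeR adjusted p = 0.37). Control library 1 was the highest of the controls, and without it Dld was called at 0.32 (edgeR adjusted p = 0.039). Dld was called lower instead with library totals (−0.71, edgeR adjusted p = 0.0028) and with the level trend removed (−0.45, edgeR adjusted p = 0.025).

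Succinyl-CoA synthetase makes succinate and a nucleotide triphosphate, with Suclg1 as the shared alpha subunit, Sucla2 as the beta subunit of the ATP-forming enzyme and Suclg2 as that of the GTP-forming enzyme. Suclg2 rose the most of these, from 51.4, 46.9 and 42.7 to 92.0, 98.1 and 66.6 CPM (0.86 ± 0.16, edgeR adjusted p = 0.0013), with lactate library 3 the lowest of its group. Sucla2 went from 43.5, 38.0 and 38.8 to 59.0, 53.6 and 55.1 CPM (0.48 ± 0.10) and Suclg1 from 62.5, 51.2 and 55.2 to 78.7, 78.5 and 71.5 CPM (0.43 ± 0.11). With library totals they stood at −0.010 (not called), −0.38 and −0.43, the last 2 called lower. The ratio of Sucla2 to Suclg2 moved by −0.37 ± 0.18 and overlapped between groups (exact permutation p = 0.2), so a shift between the ATP- and GTP-forming subunits was not separated from the spread of the libraries.

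Succinate dehydrogenase, which is also complex II of the respiratory chain, has the flavin subunit Sdha, the iron-sulfur subunit Sdhb and the membrane anchors Sdhc and Sdhd. The anchors came apart. Sdhd had 43.2, 37.6 and 38.8 CPM in control and 89.6, 87.5 and 105 CPM in lactate libraries, 2.36-fold higher (log2 1.24 ± 0.12; edgeR adjusted p = 2.7e-05). It was the only one of the 33 called higher under each of the 16 alternatives, at 0.39 with library totals (edgeR adjusted p = 0.044). Sdhc overlapped between groups, at 80.5, 61.6 and 64.3 and 76.7, 65.8 and 80.5 CPM (0.11 ± 0.14, edgeR adjusted p = 0.49), and was called lower with library totals (−0.74). Within libraries, log2 of the count ratio of Sdhc to Sdhd was 0.90, 0.71 and 0.73 in control and −0.23, −0.41 and −0.39 in lactate libraries. The sign changed in all 3, a move of −1.12 ± 0.084 or 2.18-fold (exact permutation p = 0.1).

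Sdha went from 77.0, 73.7 and 72.9 to 123, 118 and 115 CPM (0.67 ± 0.090, edgeR adjusted p = 0.00021) and Sdhb from 46.7, 50.9 and 48.7 to 71.2, 66.8 and 62.4 CPM (0.45 ± 0.10, edgeR adjusted p = 0.004), both without overlap. With library totals Sdha stood at −0.19 (not called) and Sdhb at −0.41 (called lower), and with the length trend removed Sdhb was at 0.013. The Sdha to Sdhb ratio moved by only 0.22 ± 0.064, although its groups did not overlap. Of the 4 subunits, Sdhd took 18.6 ± 0.361% of the summed FPKM (SD, n = 3) before and 29.4 ± 2.27% after lactate, while Sdhc went from 34.1 ± 3.01% to 24.6 ± 1.47%.

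The assembly factors of succinate dehydrogenase did not move as one. Sdhaf2, which helps attach the flavin to Sdha, fell from 33.8, 33.7 and 31.1 to 18.5, 17.9 and 14.9 CPM (−0.95 ± 0.13, edgeR adjusted p = 0.00022), and was called lower in each of the 16 alternatives. Sdhaf4, which protects the flavinylated Sdha before it joins Sdhb, was at 4.46, 3.54 and 3.69 and 7.71, 7.05 and 7.13 CPM (0.90 ± 0.18, edgeR adjusted p = 0.0024), a call that ended with library totals (0.044, edgeR adjusted p = 0.85). Sdhaf1, which serves the iron-sulfur subunit, was at 4.74, 4.85 and 5.02 and 6.75, 6.40 and 6.60 CPM (0.43 ± 0.17, edgeR adjusted p = 0.046). The transcripts of these factors are short, at percentiles 0.684 and 1.14 of the length implied by counts and FPKM, and with the length trend removed both were called lower, at −0.53 and −0.92. Sdhaf1 also lost its call without any single control library or without lactate library 1 or 2 (edgeR adjusted p = 0.067 to 0.12) and stood at −0.42 with library totals. Sdhaf3 was low, with 36, 44 and 39 counts in control and 24, 19 and 63 in lactate libraries, and not called (0.77 ± 0.41, edgeR adjusted p = 0.13). Lactate library 3 was its high one, and without it the value was 0.30. Sdhaf3 was called higher only with the level trend removed (1.09, edgeR adjusted p = 0.047).

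All 3 genes of the fumarate and malate steps were called higher relative to the bulk of genes. Of all genes 31.4% were called higher, and of the highest quintile by level 60.8%. With the level trend removed 0 of the 3 were called. With library totals 0 were called higher and 1 lower. Fumarate hydratase, Fh, makes malate in mitochondria and cytosol, and the malate dehydrogenases Mdh1 of the cytosol and Mdh2 of mitochondria make the oxaloacetate that closes the ring and carry electrons between both compartments. Mdh1 went from 82.4, 66.8 and 72.6 to 147, 134 and 151 CPM, 1.95-fold (log2 0.96 ± 0.11; edgeR adjusted p = 8.7e-05). Mdh2 went from 133, 137 and 134 to 257, 252 and 237 CPM, 1.85-fold (log2 0.89 ± 0.085; edgeR adjusted p = 3.1e-05). The lactate libraries stood above the control libraries in both genes by far more than the spread within a group. With library totals they were at 0.10 and 0.024 and not called, and with the level trend removed they were at 0.22 and −0.063 (not called). Their ratio moved by 0.080 ± 0.12, within the spread (exact permutation p = 0.5). Fh was at 44.8, 40.7 and 43.2 CPM in control and 55.5, 48.1 and 64.8 CPM in lactate libraries (0.39 ± 0.13, edgeR adjusted p = 0.025), with a wider spread after lactate. Its call was lost without control library 2 or 3 or lactate library 1 (edgeR adjusted p = 0.054 to 0.091). The sign of Fh turned to −0.46, called lower, with library totals and to −0.077, not called, with the level trend removed.

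Among the genes that bring carbon in or take it out, 1 rose, 2 fell and 3 were not called. Of all genes 31.4% were called higher and 34.6% lower. Pc, pyruvate carboxylase, which makes oxaloacetate from pyruvate, was at 34.5, 36.1 and 33.3 and 49.6, 50.0 and 41.9 CPM (0.44 ± 0.11, edgeR adjusted p = 0.0068), and at −0.42, called lower, with library totals. Pck2, the mitochondrial phosphoenolpyruvate carboxykinase, which takes oxaloacetate away toward phosphoenolpyruvate, fell from 86.1, 81.9 and 71.4 to 47.9, 64.3 and 30.8 CPM (−0.75 ± 0.23, edgeR adjusted p = 0.02). The lactate libraries of Pck2 were spread widely but all stayed under the control libraries. Its call was lost without control library 1 or 2 or lactate library 1 (edgeR adjusted p = 0.052 to 0.069), and without lactate library 3 the fall was −0.48. The ratio of Pc to Pck2 moved by 1.24 ± 0.24 within libraries, 2.37-fold toward Pc, with no overlap (exact permutation p = 0.1).

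The malic enzymes turn malate into pyruvate. Me2, a mitochondrial form, fell from 21.0, 20.1 and 19.8 to 15.4, 14.5 and 14.3 CPM (−0.46 ± 0.12, edgeR adjusted p = 0.0082). Me1, the cytosolic form and a source of NADPH, was at 98.1, 86.8 and 84.0 and 78.8, 74.9 and 72.1 CPM, without overlap but not called (−0.25 ± 0.10, edgeR adjusted p = 0.055). It was called lower under 5 alternatives, among them library totals (−1.12), upper-quartile factors (−0.41) and removal of the level trend (−0.89). Me3 was near the floor, with 10, 14 and 18 counts in control and 23, 3 and 10 in lactate libraries, which allow no statement on its direction (0.80 ± 0.70, edgeR adjusted p = 0.34). Me1 made up 80.9 ± 1.54% of the summed FPKM of the 3 in control and 83.0 ± 0.687% in lactate libraries. Acly, which splits exported citrate into acetyl-CoA in the cytosol, was at 106, 104 and 118 and 121, 128 and 124 CPM and not called (0.18 ± 0.093, edgeR adjusted p = 0.12), with −0.68, called lower, with library totals and 0.42, called higher, with the length trend removed. Against Acly, Cs moved by 0.41 ± 0.076 within libraries without overlap.

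Of the transaminases and glutamate dehydrogenase, Glud1 and Got2 rose and Got1 and Gpt2 were not called. Glud1, which links glutamate and 2-oxoglutarate, had the highest FPKM of the 33 genes in each control library (161, 135 and 138), and Mdh2 in each lactate library (136, 129 and 140.4). Glud1 had 348, 299.7 and 300.1 CPM in control and 469, 462 and 419 CPM in lactate libraries (0.51 ± 0.098, edgeR adjusted p = 0.0018). It turned to −0.36 with library totals and −0.69 with the level trend removed, both called lower. Got2, the mitochondrial aspartate aminotransferase of the malate-aspartate shuttle, went from 194, 154 and 165 to 329, 305 and 299.6 CPM (0.86 ± 0.11, edgeR adjusted p = 0.00015; 0.0023 with library totals, not called). Got1, its cytosolic partner, overlapped at 28.9, 28.1 and 27.6 and 32.1, 39.4 and 27.8 CPM (0.23 ± 0.14, edgeR adjusted p = 0.18), and was called at 0.37 without lactate library 3 (edgeR adjusted p = 0.024). With library totals Got1 was called lower instead (−0.64, edgeR adjusted p = 0.0019). The ratio of Got1 to Got2 moved by −0.65 ± 0.17, 1.57-fold toward Got2, with no overlap (exact permutation p = 0.1). Gpt2, the mitochondrial alanine aminotransferase, had 22.3, 26.2 and 27.6 and 26.7, 25.1 and 26.1 CPM and was not called (0.032 ± 0.12, edgeR adjusted p = 0.83; −0.83, called lower, with library totals), and the Glud1 to Gpt2 ratio moved by 0.47 ± 0.17 without overlap.

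Pck2 is known as a target of ATF4, the factor of the amino acid stress response. The upstream windows of Pck2 and Got1 are shown with the element TGATGNAA, bound by C/EBP-ATF pairs, in capitals (searched on both strands, and on the opposite strand in both genes). Pck2 lies at chr15:32997603-32997852 (+ strand) and Got1 at chr1:252329872-252330121 (− strand), again from RefSeq on GRCr8.
Pck2: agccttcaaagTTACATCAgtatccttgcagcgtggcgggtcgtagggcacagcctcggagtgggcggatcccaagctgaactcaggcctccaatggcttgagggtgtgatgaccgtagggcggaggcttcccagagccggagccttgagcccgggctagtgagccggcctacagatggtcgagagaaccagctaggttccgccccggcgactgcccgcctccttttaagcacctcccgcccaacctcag
Got1: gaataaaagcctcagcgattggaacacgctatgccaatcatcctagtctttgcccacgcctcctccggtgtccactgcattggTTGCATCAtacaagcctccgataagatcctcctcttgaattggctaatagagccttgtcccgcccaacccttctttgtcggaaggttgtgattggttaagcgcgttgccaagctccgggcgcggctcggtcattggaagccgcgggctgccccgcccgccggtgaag
The match began 239 bases before the start in Pck2 and 167 in Got1. They were the only 2 of the 32 windows with it (6.25%, against 1.80% of the windows of tested genes and 3.40% of all 33469 windows). Pck2 fell and Got1 was not called.

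D2hgdh, which oxidises D-2-hydroxyglutarate back to 2-oxoglutarate, fell the most of the 33. It had 316, 321 and 315 counts in control and 37, 48 and 14 in lactate libraries, or 6.91, 6.21 and 6.68 and 1.68, 2.26 and 0.489 CPM. Lactate library 3 was the lowest, and all lactate libraries lay far under the control libraries, 4.54-fold lower (log2 −2.18 ± 0.45; edgeR adjusted p = 0.0024). On the FPKM scale, where the implied transcript length of D2hgdh varied between libraries by 1.34 times, the groups did not overlap either. It was called lower in each of the 16 alternatives, from −3.07 with library totals to −1.72 without lactate library 3.

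Ratios within a library were formed for 14 pairs of the list, and 9 had groups that did not overlap, each at the smallest exact permutation p of 0.10 and at 0.156 after Benjamini-Hochberg adjustment over the 14. This design cannot reach an exact p under 0.05. The share of other gene pairs without overlap was not computed. Of all single genes 72.2% did not overlap, so 9 of 14 cannot be read as particular to these pairs. The widest moves were those of Idh3a against Idh3b, Idh3a against Idh3g, Pc against Pck2 and Sdhc against Sdhd, all over 1 log2 unit. Cs against Fh (0.21 ± 0.15) and Me1 against Me3 (−0.65 ± 0.86) overlapped, and Me1 against Me2 moved by 0.21 ± 0.042 without overlap.

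**Figure D4:**
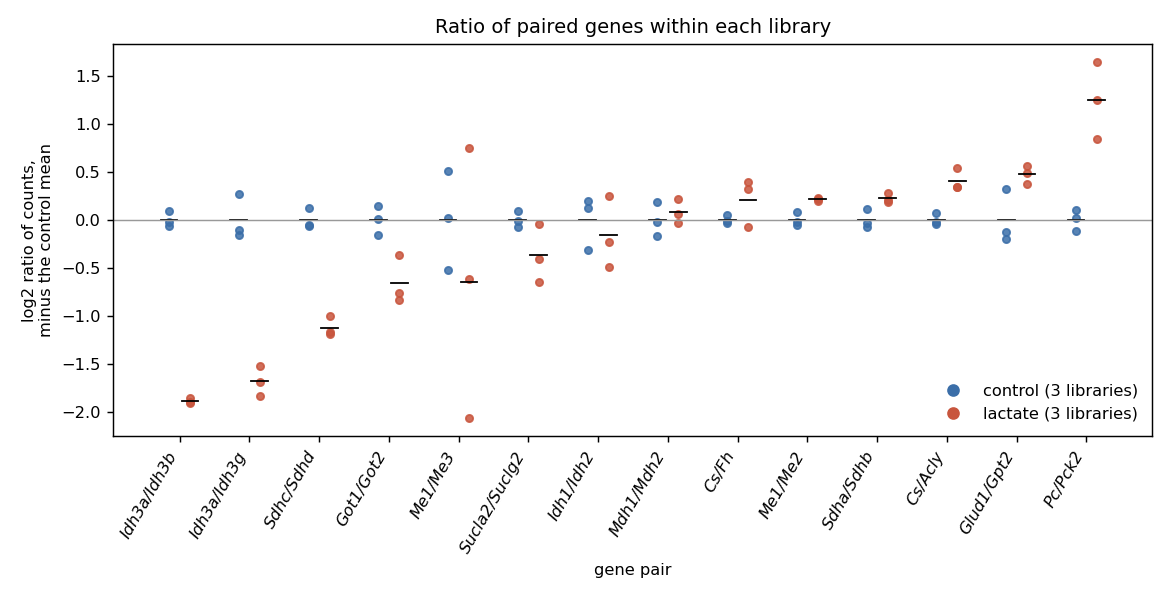
Log2 ratio of the counts of 2 genes within each library, minus the mean of the control libraries, for 14 pairs ordered by the shift; blue points are control and red points lactate libraries, and black lines are group means. Idh3a/Idh3b lies at −1.89, Idh3a/Idh3g at −1.68 and Sdhc/Sdhd at −1.12 in the lactate group, Pc/Pck2 at 1.24, and the red points of Me1/Me3 are spread widely.

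Of 44 tested genes of neighbouring steps, out of 49 listed, 12 were higher, 9 lower and 23 not called, at a median of −0.020. That is 27.3% higher and 20.5% lower, against 31.4% and 34.6% of all genes. With library totals 5 were higher and 26 lower, 11.4% and 59.1% against 12.5% and 61.8%, so these shares lay near or under the background. Entry genes had 5 higher and 1 lower of 13, and among them Pdhb (1.22 ± 0.12) and Pdhx (1.33 ± 0.13) of the pyruvate dehydrogenase complex rose, at edgeR adjusted p of 2.9e-05 and 4.1e-05. The mitochondrial pyruvate carrier subunits Mpc1 (1.25 ± 0.10) and Mpc2 (1.19 ± 0.23) rose too, and removal of the length trend left Mpc2 at −0.10, with no call. Carriers had 3 higher and 2 lower of 8. With library totals Mpc2 was at 0.32 and not called.

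Glutamate and proline genes had 1 higher and 3 lower of 15, with Aldh18a1, the first enzyme from glutamate to proline, falling from 86.3, 86.9 and 79.7 to 35.4, 32.4 and 42.4 CPM (−1.20 ± 0.12, edgeR adjusted p = 4.9e-05). Genes of lipoylation, the cofactor attachment that the 2-oxoglutarate and pyruvate dehydrogenase complexes need, and mitochondrial sirtuins had 3 higher and 3 lower of 8. Lipt2, which transfers the octanoyl precursor of lipoate, fell from 3.21, 3.17 and 3.26 to 0.453, 0.611 and 0.384 CPM (−2.74 ± 0.30, edgeR adjusted p = 6.6e-05). Iba57, an assembly factor of the iron-sulfur clusters that lipoate synthesis needs, fell from 2.86, 1.91 and 2.57 to 0.0907, 0.376 and 0.384 CPM (−3.07 ± 0.47, edgeR adjusted p = 0.00049). Its lactate libraries held only 2, 8 and 11 counts, the first under the floor of 3, so the size of the fall is uncertain. Glrx5, of the same cluster pathway, rose by 1.37 ± 0.16. The falls of Aldh18a1, Lipt2 and Iba57 and the rise of Glrx5 were called in those of the 16 alternatives that tested them.

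The authors' deposited table gave the 33 genes log2 fold changes within 0.0373 of those above. By its own adjusted p under 0.05, the authors' deposited table had 15 of them higher and 7 lower. The authors' selection of 6359 genes, all with a log2 fold change of at least 1 in size, held 4 of them: Idh3b and Sdhd as up, and Idh1 and D2hgdh as down.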

How the data were processed

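RNA-seq of 3 control and 3 lactate libraries of rat nucleus pulposus cells was analysed, with libraries made by a SMARTER kit per the labels' protocols. The authors deposited 2 tables: per the file headers, each holds read counts, FPKM (scaled by the authors for transcript length and library size), and the authors' log2 fold change and p-value. The smaller table is the authors' selection of 6359 genes. The submitters' processing notes name the builds GRCm38 and mm10, which are mouse builds, while the labels give rat. Of the aligner, counter, strand use and annotation nothing is stated in the labels or headers (not given in the sources used here), so no gene coordinates are printed from the files, and reads of overlapping, antisense or near-identical genes cannot be told apart.

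From the deposited counts, edgeR 4.0.16 (R 4.3.3) gave quasi-likelihood tests with TMM factors, its default filter on low counts and Benjamini-Hochberg adjustment over 13747 genes. Calls are at an adjusted p under 0.05, and the SE is the log2 fold change over the root of F. Ratios of counts within a library were compared by an exact two-sided permutation test. FPKM was used to compare levels between genes. Alternatives were DESeq2 1.42.0 or limma-voom (limma 3.58.1) as the test, RLE, upper-quartile or no factors, looser and stricter filters, removal of loess trends on transcript length or level, a block on replicate number, and leaving out each library. Removal of both trends at once was used only for counts and medians over genes. Transcript length was the one implied by count, FPKM and total. The labels name no batch. The edgeR code was tested on simulated data. Named genes were all 34 listed, and neighbouring genes that were called, did not overlap and changed by at least 1 on the log2 scale, of which 1 is not reported here. The members and lists were chosen with earlier results of these data known. Promoter windows came from RefSeq on GRCr8, matched by symbol, and only the 250 bases before the start were searched. Protein sequences were not analysed here.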

Additional observations from a re-analysis of the deposited data

How the results depend on the processing

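The 12 genes Idh1, Idh2, Idh3a, Sdhaf2, D2hgdh, Pck2, Me1, Me2, Idh3b, Idh3g, Mdh1 and Sdhd kept their direction in all 16 alternatives, and 7 of them (D2hgdh, Idh1, Idh2, Idh3a, Me2, Sdhaf2 and Sdhd) were called in each. These 16 leave out the removal of both trends at once, under which 14 of the 33 genes kept their direction. The members called higher and lower, 18 and 7 with TMM factors, became 1 and 21 with library totals (12.5% and 61.8% of all genes), 6 and 13 with the level trend removed (24.6% and 39.0% of all genes), and 2 and 17 with the length and level trends both removed (20.6% and 40.2% of all genes), an alternative chosen after seeing the data. Neighbouring genes became 5 higher and 26 lower with library totals, and 18 lower with the level trend removed. With library totals the log2 fold change was −0.27 for Cs, −0.59 for Dlst, −0.71 for Dld, −0.38 for Sucla2, −0.43 for Suclg1, −0.010 for Suclg2, −0.19 for Sdha, −0.41 for Sdhb, −0.74 for Sdhc, −0.42 for Sdhaf1, −0.053 for Sdhaf3, −0.46 for Fh, −0.42 for Pc, −0.057 for Me3, −0.68 for Acly, −0.64 for Got1, −0.83 for Gpt2 and −0.36 for Glud1. With the level trend removed it was −0.23 for Cs, −0.56 for Dlst, −0.45 for Dld, −0.13 for Suclg1, −0.018 for Sdha, −0.067 for Sdhb, −0.48 for Sdhc, −0.077 for Fh, −0.063 for Mdh2, −0.58 for Acly, −0.048 for Got1, −0.17 for Got2, −0.18 for Gpt2 and −0.69 for Glud1. With the length trend removed it was −0.22 for Sdhc, −0.92 for Sdhaf1, −0.52 for Sdhaf3, −0.53 for Sdhaf4 and −0.10 for Mpc2. With upper-quartile factors it was −0.00034 for Dld, −0.049 for Sdhc and −0.13 for Gpt2. Gpt2, at 0.032 with TMM factors, stood at −0.0041 with no filter and −0.037 with at least 10 counts in every library. Leaving out 1 library at a time gave Gpt2 −0.056 to 0.093 (lowest without control library 1), Me3 −0.20 to 1.24 (lowest without lactate library 1), and log2 ratio differences of −0.36 to 0.0080 for Idh1 to Idh2, −1.34 to 0.064 for Me1 to Me3 and −0.0024 to 0.17 for Mdh1 to Mdh2. The cause of these changes was not tested.

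Leaving out 1 library at a time gave 15 to 19 members higher and 6 to 7 lower, 10 to 13 neighbouring genes higher and 7 to 9 lower, 8026 to 9407 called genes in all, and 9 to 11 pairs without overlap. Control and lactate libraries with the same number had deviations that correlated at 0.01, 0.05 and 0.09, under the floor of 0.1. Control library 1 correlated best with lactate library 2 (0.08), and control libraries 2 and 3 with the lactate library of their own number. Values this weak cannot decide whether libraries of the same number share a culture or day. The labels do not say either. With the replicate number as a block, 8814 genes were called in place of 9079, with 16 members higher and 7 lower and 11 neighbouring genes higher and 8 lower. Dlst (edgeR adjusted p = 0.059) and Sdhaf1 (0.091) were the members that lost a call under the block. Depth limits Me3, with as few as 3 counts in a library, and Sdhaf3, with as few as 19.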

Other observations

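The length implied by count, FPKM and total, which is the same in every library where a gene's counts and FPKM rest on the same transcript, differed between libraries for D2hgdh by 1.34 times from its lowest to its highest value. The next widest of the 33 genes was Me2, at 1.09 times. Over the 11852 genes with at least 10 counts in every library the median was 1.01 and the 90th percentile 1.08. On the FPKM scale D2hgdh stood at 3.32, 2.41 and 2.79 in control and 0.318, 0.422 and 0.106 in lactate libraries, still without overlap.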
